A study of Mus musculus with 5 samples.

Results

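The D cyclins, their kinase partners, the cyclin-dependent kinase (CDK) inhibitors that hold them back and the retinoblastoma protein were examined as 10 named genes, Ccnd1, Ccnd2, Ccnd3, Cdk4, Cdk6, Cdkn1a, Cdkn1b, Cdkn1c, Cdkn2c and Rb1, out of 21883 protein-coding genes. They were chosen by name, with earlier results of these data known. For each gene, the peaks at either end (within 1 kb), in the gene body and within 100 kb were taken from a list of 22948 H3K27ac peaks. H3K27ac is the form of histone H3 acetylated at lysine 27 and is found at active promoters and enhancers. It was measured by ChIPmentation, a chromatin immunoprecipitation in which the transposase Tn5 inserts the sequencing adapters.

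The study used CD45.2+Lineage-Sca1+Kit+ cells of mouse bone marrow, labelled HSC/MPP (haematopoietic stem cells and multipotent progenitors) and Mll3/4 deleted. All 4 H3K27ac libraries and the 1 input library carried this genotype, so the list holds no control genotype, and gains or losses of peaks were not measured. Mll3 and Mll4 are histone methyltransferases that act mainly at enhancers. The age and strain of the mice and the way the genes were deleted are not given in the sources used here. The list was deposited as 1 set for the 4 libraries together. Each peak therefore has 1 value without replicate error, and no test between samples was possible.

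Cells pass from the G1 phase of the cell cycle into S phase when D cyclins activate Cdk4 and Cdk6, and these kinases phosphorylate the retinoblastoma protein, which then releases the E2F factors. INK4 inhibitors such as the product of Cdkn2c bind Cdk4 and Cdk6 directly, while the CIP/KIP inhibitors encoded by Cdkn1a, Cdkn1b and Cdkn1c bind cyclin-kinase complexes. Blood stem cells are mostly out of cycle, and their quiescence is known to depend on this balance, whereas dividing B-cell progenitors rely on Ccnd3.

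The sorted cell type was checked against markers. Among genes of stem and progenitor cells, Kit, Ptprc, Flt3 and Meis1 had a peak at an end, while Ly6a (encoding Sca1), Cd34, Hlf, Mecom and Procr had none. The B-cell genes Cd79a, Ebf1 and Pax5 each had one. None of 3 T-cell, 5 granulocyte and monocyte, 5 erythroid and megakaryocyte and 4 non-blood genes did. The part of B-lineage signal in the values below was not tested.

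The promoter windows that the results turn on are shown first, as 300 bases from 250 before to 50 after the annotated start, from RefSeq on GRCm38.p6, written in the direction of the gene. They belong to the pair of inhibitor genes with the widest peaks, to both kinase genes and to the first start of Ccnd3. Capitals mark the letters of any motif searched.
Cdkn1b, chr6:134920151-134920450, plus strand: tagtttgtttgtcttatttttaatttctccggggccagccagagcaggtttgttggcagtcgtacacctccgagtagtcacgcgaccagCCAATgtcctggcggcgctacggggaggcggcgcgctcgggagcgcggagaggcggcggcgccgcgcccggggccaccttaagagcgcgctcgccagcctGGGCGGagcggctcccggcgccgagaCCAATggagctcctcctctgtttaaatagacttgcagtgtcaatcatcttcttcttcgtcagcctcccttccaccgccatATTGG
Cdkn2c, chr4:109666707-109667006, minus strand: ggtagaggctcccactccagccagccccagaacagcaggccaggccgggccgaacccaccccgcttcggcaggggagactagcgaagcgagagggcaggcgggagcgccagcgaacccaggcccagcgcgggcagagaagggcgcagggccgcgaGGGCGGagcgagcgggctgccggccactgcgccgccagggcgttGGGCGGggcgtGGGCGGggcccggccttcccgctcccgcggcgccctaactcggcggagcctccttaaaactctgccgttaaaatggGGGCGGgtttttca
Cdk4, chr10:127063285-127063584, plus strand: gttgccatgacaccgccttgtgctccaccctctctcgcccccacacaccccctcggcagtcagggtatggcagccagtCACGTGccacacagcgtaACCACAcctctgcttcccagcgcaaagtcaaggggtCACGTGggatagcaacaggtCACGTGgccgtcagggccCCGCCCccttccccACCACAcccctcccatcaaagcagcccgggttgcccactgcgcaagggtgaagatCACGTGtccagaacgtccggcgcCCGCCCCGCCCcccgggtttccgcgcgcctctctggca
Cdk6, chr5:3343643-3343942, plus strand: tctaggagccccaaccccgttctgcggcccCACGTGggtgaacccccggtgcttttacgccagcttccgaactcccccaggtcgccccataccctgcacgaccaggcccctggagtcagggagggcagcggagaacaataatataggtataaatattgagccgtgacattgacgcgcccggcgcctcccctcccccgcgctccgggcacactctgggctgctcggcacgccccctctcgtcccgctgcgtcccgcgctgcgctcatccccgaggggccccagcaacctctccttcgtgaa
Ccnd3, chr17:47504801-47505100, plus strand: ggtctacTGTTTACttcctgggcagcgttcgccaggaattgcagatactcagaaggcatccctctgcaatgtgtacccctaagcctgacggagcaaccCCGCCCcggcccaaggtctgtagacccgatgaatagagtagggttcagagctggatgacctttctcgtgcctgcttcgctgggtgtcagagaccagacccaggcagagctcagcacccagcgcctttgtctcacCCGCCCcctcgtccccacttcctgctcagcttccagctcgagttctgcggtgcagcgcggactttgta

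Of the 10 genes, 6 had a peak at an end: Ccnd3, Cdk4, Cdk6, Cdkn1b, Cdkn2c and Rb1. Among all protein-coding genes, 36.2% had one. Neither end carried a peak at Ccnd1, Ccnd2, Cdkn1a and Cdkn1c. By role, 1 of 3 D cyclin genes, both kinase genes, 1 of 3 CIP/KIP genes, the INK4 gene and Rb1 had a peak. Together the windows held 82 peaks, of which 8 lay at an end of the gene itself, 25 in its body, 23 at an end of another protein-coding gene and 26 elsewhere. A q-value above 0.05 was attached to 12 of these 82 peaks, against 21.2% of the whole list, and to none of the 8 peaks at the ends. The median count per gene was 8.5 peaks (range 1 to 16), against a median of 3 (interquartile range 1 to 6) over all protein-coding genes. Since neighbouring genes share these windows, only 40 of the 82 peaks had one of the 10 genes as the nearest protein-coding gene.

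**Figure D1:**
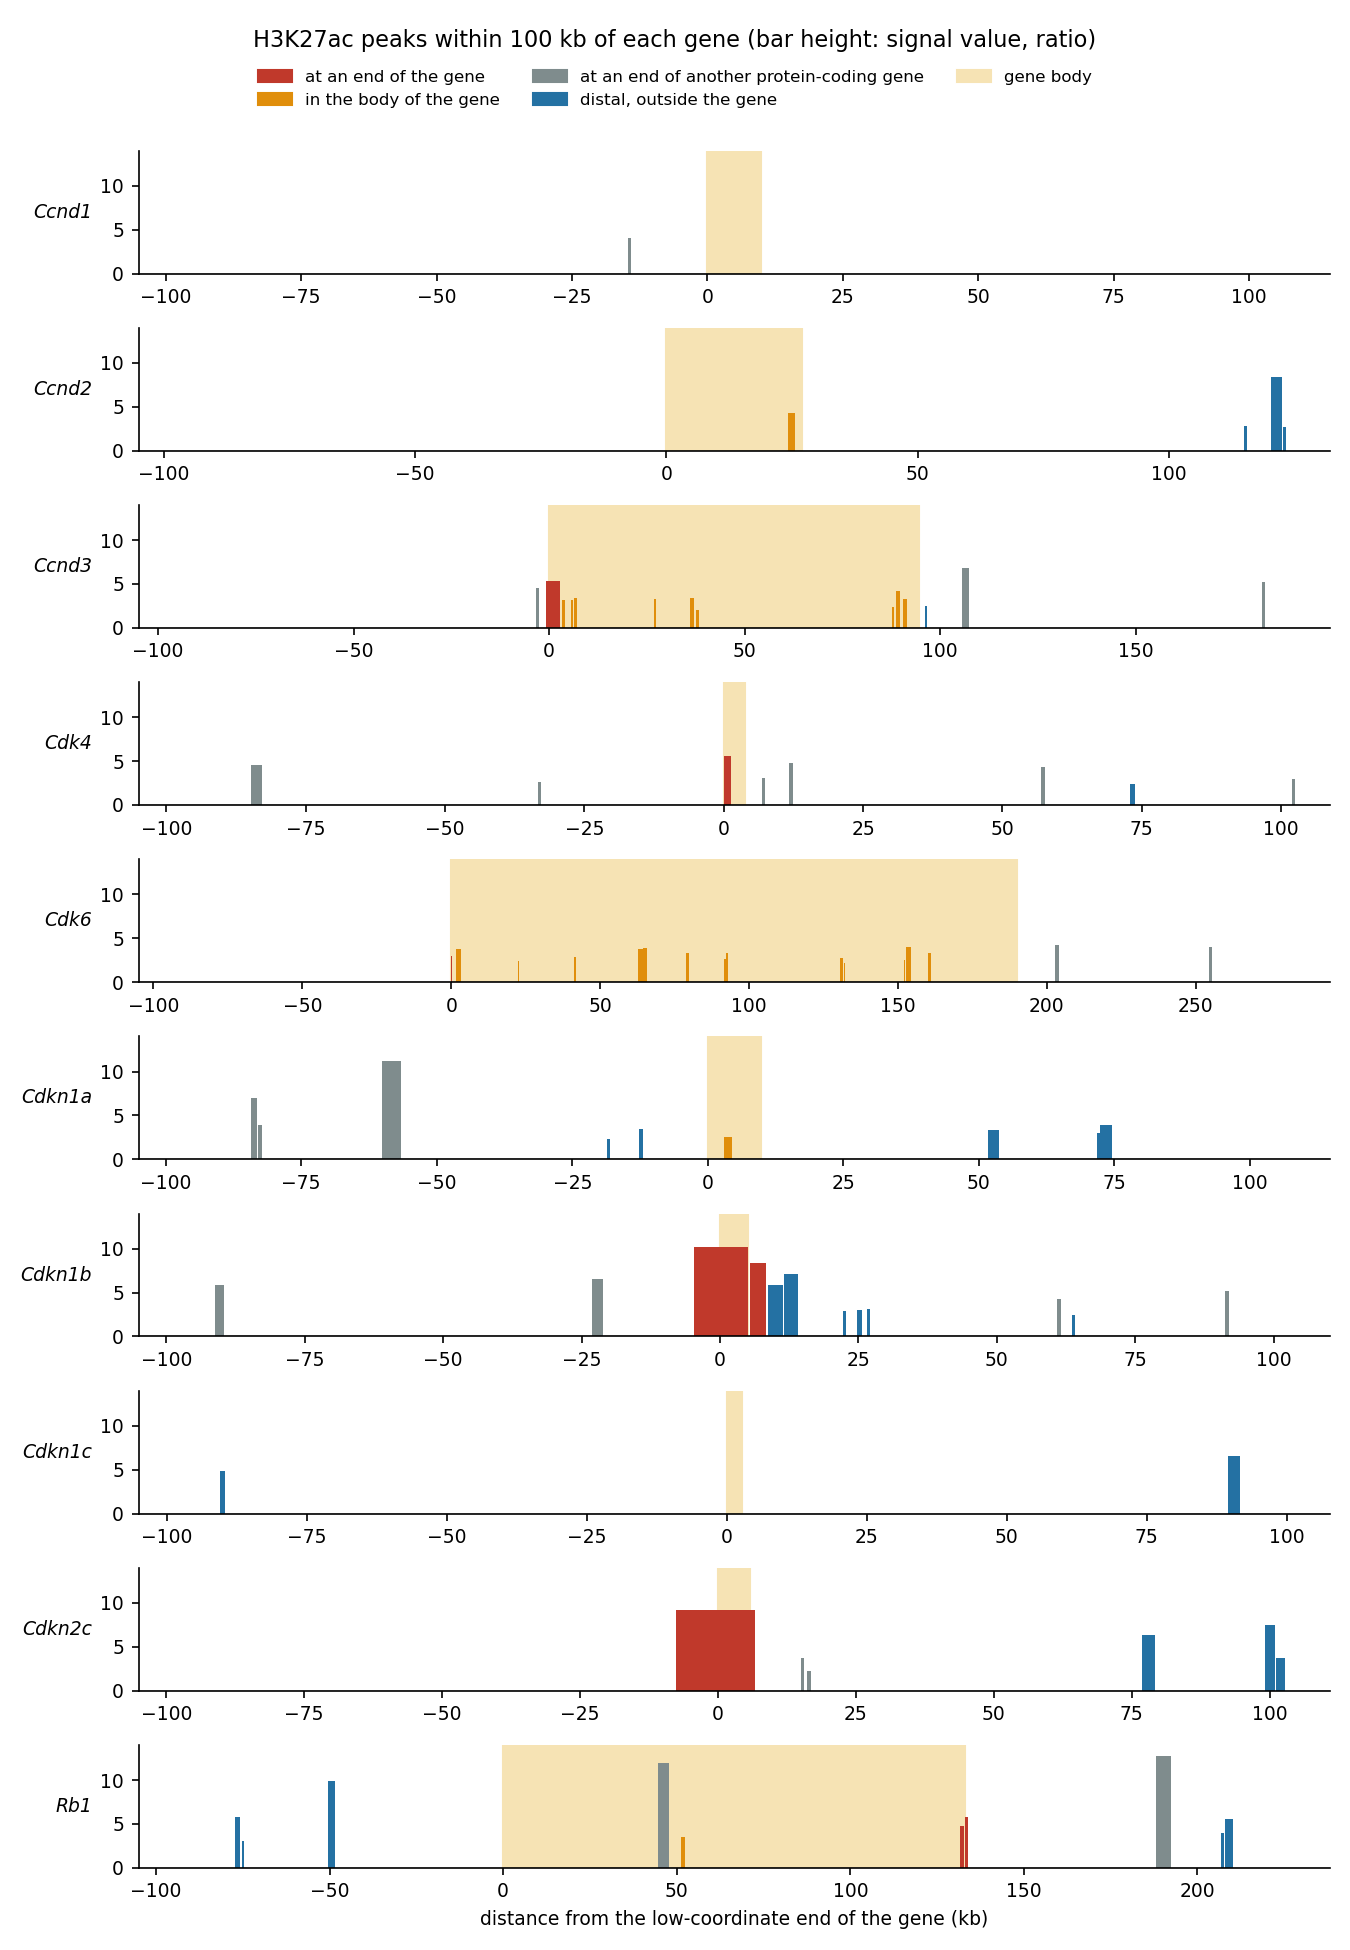
H3K27ac peaks around each of the 10 genes. The horizontal axis is the distance in kb from the low-coordinate end of the gene. Bar height is the signal value (a ratio, 1 value per peak for 4 pooled libraries). Bar width is the peak width (at least 0.6 kb, so that narrow peaks stay visible). Shading is the gene body and colours give the place of the peak. Cdkn2c carries 1 wide peak and Cdkn1b a wide peak followed by narrower ones. Cdk6 and Ccnd3 carry many peaks inside the gene, all narrower than the wide peaks of Cdkn2c and Cdkn1b.

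The widest acetylated regions of the group lay over inhibitor genes. At Cdkn2c, which encodes the INK4 inhibitor p18, a single peak at chr4:109653358-109667548 was 14191 bp wide, the 5th widest of the 22948 peaks. Its signal value, the authors' enrichment over background at the summit, was 9.25, with −log10 q of 42.3. The peak covered 100% of the gene, including both annotated starts. It ran 7518 bp past the low end, which on the minus strand is the downstream end, and 792 bp past the high end. The summit itself lay 4.08 kb beyond the low end, inside the long non-coding RNA gene 9630013D21Rik, so the strongest point of this region was not at the start of Cdkn2c.

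At Cdkn1b, which encodes the CIP/KIP inhibitor p27, the main peak at chr6:134915749-134925471 was 9723 bp wide and ranked 31st in width, with −log10 q of 35.4 and a signal value of 10.2. Its summit lay 0.581 kb inside the gene from the start. The peak began 4652 bp before the start and covered 98.9% of the gene. A second peak followed 0.216 kb past the high end, at chr6:134925741-134928633, with a width of 2893 bp and a signal value of 8.42. Further peaks at chr6:134929037-134931760 (signal value 5.85) and chr6:134931982-134934544 (signal value 7.07) overlapped Lockd, a long non-coding RNA gene next to Cdkn1b. When peaks within 1 kb of each other were joined, they formed 1 region of 18796 bp. Farther out, 3 more peaks over Lockd had signal values of 2.90, 2.97 and 3.12, all below the list's median of 3.27.

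Wide peaks at gene ends were rare. Of the 7927 genes that carried a peak at either end, 0.315% had one of at least 9 kb, and Cdkn2c and Cdkn1b were 3rd and 24th in the order of their widest peak. The median of the widest peak per gene was 1147 bp (interquartile range 714 to 1810 bp). Genes covered by peaks over at least 90% of their length made up 0.398% of all protein-coding genes, and both inhibitor genes were among these. They are short genes, 5.881 kb for Cdkn2c and 5.125 kb for Cdkn1b, against a median length of 17.2 kb. In signal value they stood lower in the same order, with ranks of 693 for Cdkn2c (from its summit outside the gene) and 432 for Cdkn1b.

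**Figure D2:**
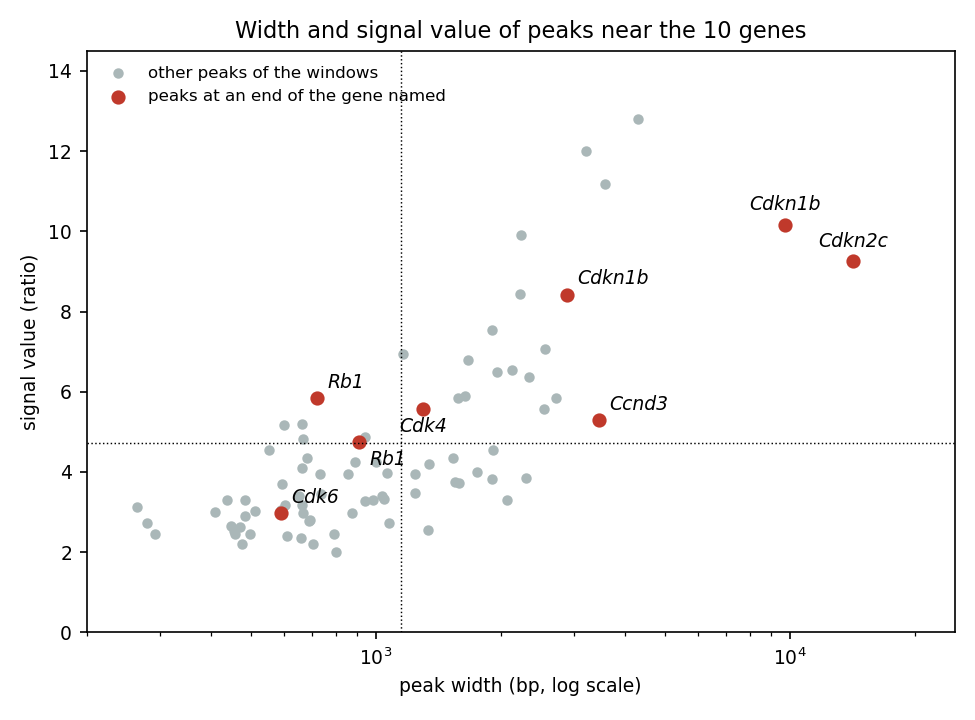
Width in bp (log scale) against signal value (ratio) for the 82 peaks of the windows, with red points for the 8 peaks at an end of the gene named beside them and dotted lines at the medians over all genes with a peak at an end (1147 bp and 4.71). The points of Cdkn2c (14191 bp) and the main peak of Cdkn1b (9723 bp) lie apart in width but not in signal value.

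The other CIP/KIP genes had no peak at an end. Cdkn1a, which encodes p21 and is a target of the tumour suppressor p53, had 1 peak inside the gene at chr17:29094053-29095385, with a width of 1333 bp, −log10 q of 1.45 and a signal value of 2.54. This peak began 284 bp beyond the second annotated start of the gene and was 3025 bp from the window of the first start. On the low side, 2 peaks lay over Trp53cor1, a p53-induced long non-coding RNA gene: chr17:29078229-29078964 with a signal value of 3.46, and chr17:29072303-29072959 with 2.37. The strongest peak of the Cdkn1a window, with a signal value of 11.2, belonged to an end of Srsf3, a splicing factor gene, 56.5 kb away. Cdkn1c, which encodes p57 and is an imprinted gene tied to stem cell quiescence, had neither a peak at an end nor one in the body. The nearest peaks were 86.9 kb away, inside Nap1l4 (signal value 6.55), and 89.5 kb away, inside Kcnq1 (signal value 4.86). A missing peak means that none passed the authors' calling, and does not show that acetylation was absent. In such bulk samples, strong acetylation in few cells and weak acetylation in many cannot be told apart.

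The 4 inhibitor genes differed among themselves. The strongest peak at an end had a signal value of 10.2 at Cdkn1b and 9.25 at Cdkn2c, both above the upper quartile of 6.55 over all genes with such a peak, while Cdkn1a and Cdkn1c had none to rank. The value of Cdkn2c was that of a summit 4.08 kb beyond its low end, so the signal at the end itself was not measured. The share of the gene covered by peaks was 100% at Cdkn2c, 98.9% at Cdkn1b, 13.7% at Cdkn1a and 0% at Cdkn1c.

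Both kinase genes carried a peak at or near the annotated start. At Cdk4, the peak at chr10:127063631-127064930 had a width of 1300 bp, −log10 q of 12.1 and a signal value of 5.57. It began 96 bp downstream of the start, 47 bp past the end of the promoter window printed above, which it did not cover. The other peaks of this gene-dense window lay mostly at neighbours, 6 of them at ends of Ctdsp2, Tsfm, Tspan31, Agap2, Os9 and B4galnt1, with signal values from 2.63 to 4.83. The remaining one, at chr10:127136496-127137288, was distal and had a signal value of 2.45.

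Cdk6 showed a different layout. The peak counted at its low end, chr5:3340808-3341396, had a signal value of 2.97 and was 589 bp wide. The promoter table places the start 2.89 kb further in, and there a wider peak, chr5:3342503-3344408 (1906 bp, signal value 3.82, −log10 q 4.98), covered it. Inside the 190 kb gene, 13 summits were counted, this start peak included, the last of them 161 kb from the low end. Their signal values ran from 2.19 to 4.01, and 4 of the 13 had a q-value above 0.05. Among the 2758 protein-coding genes of at least 90 kb, 50.3% had a summit in the body, the median was 1 and 103 genes had 13 or more. The strongest was chr5:3493686-3495443 (signal value 4.01), followed by chr5:3405498-3406742 (3.95), the start peak (3.82) and chr5:3403714-3405296 (3.74). The peaks with 3.95 and 3.74 were neighbours and lay over the non-coding gene Gm29868 within Cdk6. The median signal value over all peaks of the list was 3.27, and the 13 lay on both sides of it. None of them reached 4.71, the median over genes of the strongest peak at an end. That median is taken over maxima per gene, so single body peaks are not a like measure.

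Ccnd3 was the D cyclin gene with the most peaks. The peak over its first start, chr17:47504285-47507736, was 3452 bp wide, with −log10 q of 10.6 and a signal value of 5.29. In the 94.6 kb body there were 9 summits, a number reached by 178 of the 2758 genes of at least 90 kb. They fell into 3 groups: 3 peaks within 7 kb of the first start (signal values of 3.18, 3.18 and 3.39), 3 between 27 and 37.9 kb (3.30, 3.39 and 2.01), and 3 about the second annotated start (2.41, 4.25 and 3.27). Of the 9, the 2 with signal values of 2.01 and 2.41 had a q-value above 0.05. The weakest of the last group, chr17:47592717-47593327, overlapped the promoter window of the second start, and the strongest, chr17:47593837-47594835, began 370 bp beyond that start. Ends of Taf8 (signal value 4.56), Bysl, Gm20517 and Med20 together (6.79), and Tomm6, Frs3 and Prickle4 together (5.20) accounted for 3 further peaks, and a distal one inside Bysl had 2.45.

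Ccnd2 had no peak within 1 kb of its annotated ends. The nearest one, chr6:127149292-127150825, lay inside the gene with its summit 2.59 kb from the high end. It had a width of 1534 bp, −log10 q of 6.93 and a signal value of 4.34, and it was counted at the end when the window was 2.5 kb. It also overlapped the non-coding gene 9330179D12Rik. Well outside the gene, a group of 3 peaks began 87.8 kb past the high end. Its main peak, chr6:127245476-127247698, was 2223 bp wide, with −log10 q of 26.3 and a signal value of 8.45, above the 4.34 of the peak inside the gene. Ccnd2 was still the nearest protein-coding gene to these peaks, and which gene they act on was not measured.

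Ccnd1, the D cyclin known best from solid tissues, had no peak at an end or in the body. The single peak in its window, chr7:144915208-144915869, lay at an end of the neighbour LTO1, 14.1 kb away, with a signal value of 4.09. In order of the count of peaks in the window, the D cyclin genes were Ccnd3 with 14, Ccnd2 with 4 and Ccnd1 with 1. They differ in length (94.6, 27.03 and 9.90 kb), which the count follows in part by construction.

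Rb1, which encodes the retinoblastoma protein, had a pair of peaks at its high end. The one outside the gene, chr14:73325988-73326707, had a signal value of 5.84 (−log10 q 12.9), and the one inside, chr14:73324577-73325488, had 4.74 (−log10 q 8.34). The strongest peak within Rb1 was not at these ends. It lay at chr14:73237438-73240651, at an end of Lpar6, a receptor gene contained in Rb1, with −log10 q of 47.3 and a signal value of 12.001. One more peak in the body, chr14:73243958-73245201, had a signal value of 3.49. The highest signal value of all 82 peaks, 12.8, belonged to an end of Itm2b, 55.0 kb from Rb1.

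Several strong peaks of the windows lay outside the genes. Beside Cdkn1b, ends of Gpr19 (signal value 6.49), Crebl2 (5.91), Ddx47 (5.17) and Apold1 (4.25) each carried 1 peak. On the high side of Cdkn2c, an end of Faf1, whose product binds the apoptosis receptor Fas, carried 2 peaks (3.70 and 2.20). Inside the same neighbour, chr4:109737799-109740137 had a signal value of 6.37, chr4:109759968-109761873 had 7.53 and chr4:109762052-109763601 had 3.76, at 71.0 to 95.3 kb from Cdkn2c. Below Rb1, a peak inside Rcbtb2 at chr14:73142280-73144521 had a signal value of 9.92, while a pair 74.8 and 75.8 kb away had 3.03 and 5.84. Beyond Cdkn1a, Rab44 and Cpne5 held 3 distal peaks with signal values from 3.00 to 3.85. Outside Cdk6, an end of Fam133b carried a peak with a signal value of 4.19. All of these were nearer to an end of another protein-coding gene than to the gene whose window held them.

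The counts per window moved with the threshold on the list. With −log10 q of at least 5, Cdk6 kept 5 of its 16 window peaks and Ccnd3 kept 5 of 14, while Cdkn1b kept 8 of 12 and Rb1 kept 8 of 10. Where the signal value had to reach 4, the peaks left numbered 2 for Cdk6, 5 for Ccnd3, 8 for Cdkn1b and 7 for Rb1. The windows of Cdkn1b and Rb1 then held more peaks than those of Cdk6 and Ccnd3. These counts include peaks of neighbouring genes. On the whole list, the gene itself was the nearest protein-coding gene to 14 of 16 window peaks for Cdk6 and 8 of 14 for Ccnd3. It was so for 7 of 12 for Cdkn1b and only 2 of 10 for Rb1.

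**Figure D3:**
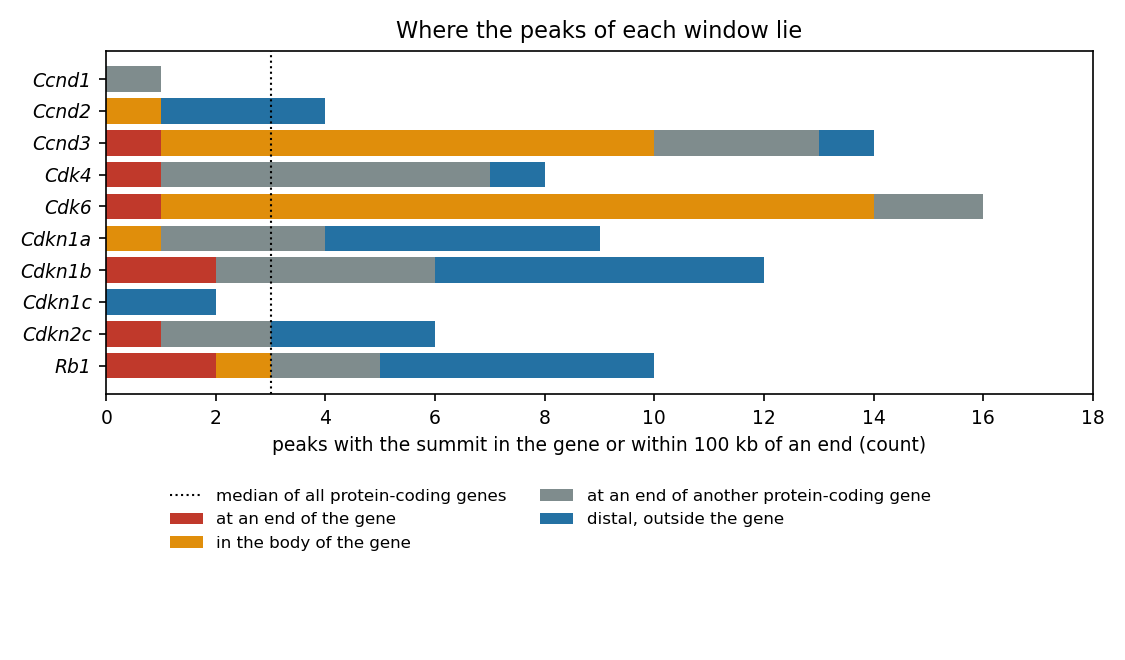
Number of peaks in the window of each gene (the gene plus 100 kb on either side), divided by where each peak lies. On the whole list, Cdk6 (16 peaks) and Ccnd3 (14) are made up mostly of peaks in the gene (5 and 5 peaks are left with −log10 q of at least 5), Cdk4 mostly of peaks at the ends of neighbours, and the dotted line is the median of 3 over all protein-coding genes.

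Body peaks were found in 5 of the 10 genes, Ccnd2, Ccnd3, Cdk6, Cdkn1a and Rb1, against 18.4% of all protein-coding genes. The median length of all protein-coding genes was 17.2 kb, and Ccnd3, Cdk6 and Rb1 were far longer. When any overlap with the body counted in place of the summit, the number was 8, against 28.5% of all protein-coding genes (6226 of 21883) by the same rule, since Cdk4, Cdkn1b and Cdkn2c were then added through the wide or start peaks described above. Distal peaks, with the summit over 1 kb from every end of a protein-coding gene, were present in the windows of 9 of the 10 genes, against 59.1% of all genes. Their median number per gene was 5, against 1 over all genes. Ccnd1 was the exception.

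Joining distal peaks that lay within 12 kb of each other gave 8974 clusters over the genome, which were ordered by their summed product of width and signal value. The Cdkn2c peak ranked 35th on its own, since its summit was distal to all protein-coding gene ends although the peak covered the gene. The cluster beside Cdkn1b, chr6:134925741-134947131, held 6 peaks over 21.4 kb and ranked 163rd, without the main peak of the gene. Both were within the 391 clusters past the point where the ranked curve reached a slope of 1. The best clusters of the other windows ranked 841st for Rb1 (inside Rcbtb2), 885th for Ccnd2, 1514th for Cdkn1c, 1866th for Cdk6, 2168th for Cdkn1a, 2181st for Ccnd3 and 6494th for Cdk4.

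The promoter table held 9 start windows for 6 of the genes (Ccnd3, Cdk4, Cdk6, Cdkn1a, Cdkn1b and Cdkn2c). Ccnd1, Ccnd2, Cdkn1c and Rb1 had no entry. A peak overlapped 6 of the 9 windows, against 19.6% of 32851 windows over the genome. The windows without a peak were that of Cdk4 and both of Cdkn1a. The GC content ran from 44.0% at the second start of Cdkn2c to 73.3% at its first, with a median of 52.7% over all windows and 60.7% over windows with a peak. The first window of Cdkn1a held 2 CG dinucleotides and was the poorest of the 9. The first of Cdkn2c held 33 and was the richest, against medians of 7 over all windows and 22 over those with a peak.

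Motif letters were searched on both strands, and positions count from 1 at the start, with negative numbers before it, giving the first base of the match in the direction of the gene. CACGTG, the E-box bound by Myc and related factors, occurred 4 times in the Cdk4 window, at -172, -118, -98 and -11, all printed above in capitals. At least 4 copies were found in 8 of the 32851 windows, and 7.15% held at least 1. Cdk6 had 1 copy at -220 and the second start of Cdkn2c had 1 at 35. GGGCGG, the box of SP and KLF factors, was in 6 of the 9 windows, in 35.7% of all windows and in 60.8% of those overlapped by a peak, with 4 copies in the first window of Cdkn2c, at -95, -51, -40 and 37. At least 4 copies were found in 5.49% of all windows. CCAAT, the box of NFY, occurred 3 times at Cdkn1b, at -161, -35 and 46, as in 3.37% of all windows with 3 or more.

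The E2F letters TTTCGCGC, TTTGGCGC and TTTCCCGC were in none of the 9 windows and in 1.84% of all. TTCNNNGAA, a STAT site, was in none and in 8.30% of all, and the CRE letters TGACGTCA were in none and in 1.79% of all. CCGGAA, an ETS site, was in the second window of Ccnd3 and in 14.9% of all. TGTGGT, a RUNX site, occurred in the Cdk4 window, at -154 and -66, and in 16.8% of all. GTAAACA, a FOXO site, was in the first window of Ccnd3 at -243 and in 3.65% of all. These are matches of letters only.

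The other genes of the G1-to-S step were read from a list of 31. Of these, 22 had a peak at an end, or 71.0%, against the 36.2% of all genes. The counts were 4 of 5 for the E cyclins and their partners, 1 of 3 for the other INK4 genes, 9 of 12 for pocket proteins and E2F or DP factors, 5 of 7 for ubiquitin ligase parts and the CDK-activating kinase, and 3 of 4 for genes acting upstream of the inhibitors. The median of their strongest signal values, 4.30, was near the 4.71 of all genes with a peak at an end. The highest were Foxo3, a forkhead factor that activates Cdkn1b (signal value 12.2, −log10 q 47.3, peak of 5829 bp), Fbxw7, which marks cyclin E for degradation (7.96), and Rbl2, a relative of Rb1 (7.59). Neither end carried a peak at Ccne2, Cdkn2a, Cdkn2b, E2f1, E2f6, E2f7, Skp2, Mnat1 and Zbtb17. Of these, Skp2, which marks p27 for degradation, had 3 summits in the body and Mnat1 had 2. Among the INK4 genes, Cdkn2d had a peak with a signal value of 4.50, while Cdkn2a and Cdkn2b had no peak at an end, in the body or, away from gene ends, within 100 kb.

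**Figure D4:**
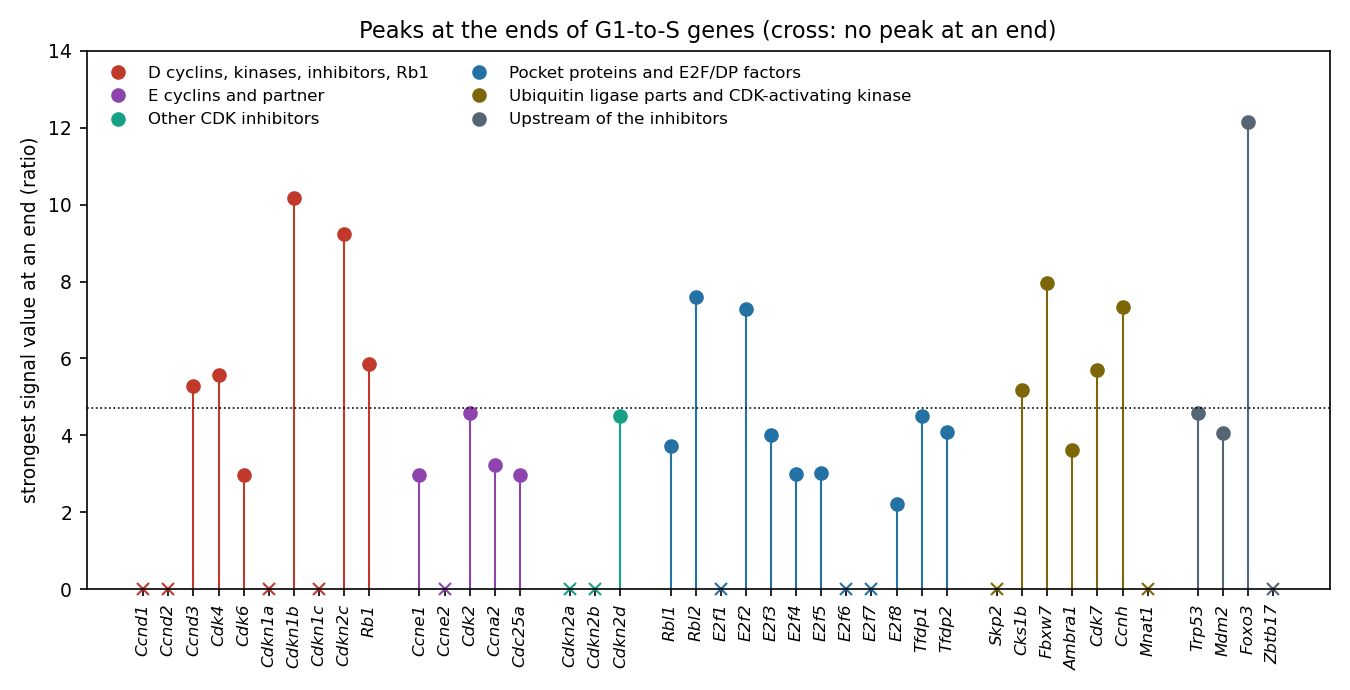
Strongest signal value (ratio) of a peak within 1 kb of an end for the 10 genes and the 31 other genes of the G1-to-S step, grouped by role. Crosses mark genes without such a peak, and the dotted line is the median of 4.71 over all genes with one. Foxo3 (12.2), Cdkn1b (10.2) and Cdkn2c (9.25) stand highest. The value of Cdkn2c is that of a summit 4.08 kb beyond its low end.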

How the data were processed

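ChIPmentation libraries of H3K27ac (4) and input (1) had been processed by the authors into 1 peak list. BWA, MACS2 and build mm10 are named in the submitters' processing notes, without versions; options and filters are not given in the sources used here. Per the narrowPeak layout, the deposited columns hold a score, the signal value (read as the authors' enrichment ratio of H3K27ac over background, from 1.44 to 34.0), and the authors' −log10 p and −log10 q. The score was not used, and q-values are those of the authors' list. Total read counts were not given, so depth is unknown.

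Genes came from a RefSeq table of GRCm38.p6, which is mm10 for the assembled chromosomes, and all 10 symbols matched. The table gives no strand; strand and starts came from the RefSeq promoter table, which held 6 of the 10. A peak was at an end when it overlapped the 1 kb on either side of it, in the body when its summit lay inside and over 1 kb from both ends, and in the window when its summit lay within 100 kb. Where a peak is called covered or wide, width is end minus start of the list. Counting was checked on planted peaks (Python 3.11.15, pandas 2.3.3). The named genes are the 10, the 3 strongest and the peakless genes of the G1-to-S list, markers, and neighbours at whose ends a window peak lay. Cdkn2d, other neighbours and non-coding genes were named after their values were seen. Some marker and neighbouring genes are not reported here. Members and lists were chosen with earlier results of these data known. No test was run, since each value is pooled over the libraries.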

Additional observations from a re-analysis of the deposited data

How the results depend on the processing

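Of 182 recomputed values, 120 stayed within 1.5 times the reported one. The count of the 10 genes with a peak at an end ranged from 4 to 7: 5 were left (without Cdk6) when −log10 q had to reach 5 or the signal value 4, 7 were found with 2.5 kb (Ccnd2 was added), 5 by summits (without Cdkn2c) and 4 of the 6 listed genes in the start windows, a setting chosen after seeing the data. With −log10 q of at least 5, a peak at an end was left for 14 of the 31 pathway genes and 5253 of all genes, and a body peak for 1958 genes; with a signal value of at least 4 these were 14, 5075 and 1841. In the start windows they were 11 pathway genes and 4657 of all genes. Any overlap gave body peaks in 8 of the 10 and 6226 of all genes. The median of peaks per window fell from 8.5 to 3.5 (−log10 q), 2.5 (signal value) and 4 (50 kb), and of distal peaks from 5 to 2, 1.5 and 1.5, and to 3 after merging within 1 kb. The medians over all genes (3 peaks and 1 distal peak) were not recomputed at these settings. The comparison with all genes therefore holds for the main setting only. The best cluster rank, that of Cdkn2c, moved from 35 to 21 with −log10 q of at least 5, where fewer peaks enter. No library could be left out. No paired analysis was possible because every value is pooled over libraries. How many weak peaks deeper input would keep was not measured.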
